A study of Mus musculus with 6 samples.

Results

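The cluster on the X chromosome that holds miR-322 and miR-503 was examined through the RNA ends that parallel analysis of RNA ends (PARE) recorded on its minus strand. All tags with a 5′ end between positions 50400001 and 50412000 of chromosome X (mm9, counted from 1) were taken, a stretch of 12 kb chosen because of a strong end at position 50406452 in ovary. They numbered 1962 tags on 22 distinct 5′ ends, of 449338 ends in the whole survey. That end was placed in the series after the host transcript of miR-322 and miR-503. Against the microRNA sequences it was found to be the first base after miR-351-3p, another microRNA of the same cluster, and it is called the miR-351 hairpin end below.

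PARE tags are short reads that start at the 5′ monophosphate of a polyadenylated RNA. Libraries were made from whole brain, lung, liver, kidney, ovary and spleen of adult mice of BALB-c background, with no treatment or altered genotype named in the labels. Each tissue had 1 library, so no tissue has a replicate, no test between tissues was possible, and the number of animals behind a library is not given in the sources used here. Lung was the deepest library with 493121 unique tags and ovary the shallowest with 29213, next to 162270 for kidney, 78952 for liver, 42939 for spleen and 33382 for brain. Levels are counts per 1000000 unique tags (CPM). A count of 0 allowed up to 6.08 CPM in lung and 102.7 CPM in ovary (3 tags). All intervals given are exact, at 95%, and reflect the error of counting alone. They treat tags as independent, and because PCR copies of a molecule are not, they can be too narrow. Tags carry no cell identity, so a smaller number of cells and less RNA per cell cannot be told apart.

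MicroRNAs are cut from long primary transcripts in the nucleus by the Microprocessor, whose nuclease Drosha cleaves both strands at the base of a hairpin. The hairpin is then exported and trimmed by Dicer into a 5p and a 3p arm, while the polyadenylated remainder of the primary transcript keeps a 5′ monophosphate at the first base after the 3p arm and is degraded. miR-322 (the mouse counterpart of human miR-424) and miR-503 belong to the wider miR-15/16 family, known for restraining cyclins and other cell cycle genes and for roles in muscle differentiation, and miR-351 shares its seed with miR-125. In RefSeq (GRCm38.p6) the hairpins Mir322, Mir503 and Mir351 lie inside the long noncoding RNA gene C430049B03Rik, and Mir542, Mir450-2, Mir450-1 and Mir450b lie between it and Hprt.

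The mature sequences show that the 3 hairpins of the noncoding gene carry different seeds, so the abundant end belongs to another seed family than miR-322 and miR-503. The seed, bases 2 to 8 that pair with target RNAs, is in capitals, and the sequences are from RefSeq (GRCm38.p6).
miR-322-5p: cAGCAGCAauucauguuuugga
miR-16-5p: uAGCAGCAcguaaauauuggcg
miR-195a-5p: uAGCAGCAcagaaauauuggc
miR-503-5p: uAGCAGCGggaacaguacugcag
miR-351-5p: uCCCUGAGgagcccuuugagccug
miR-125a-5p: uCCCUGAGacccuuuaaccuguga
miR-125b-5p: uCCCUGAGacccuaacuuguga
The seed of miR-322-5p is that of miR-16-5p and miR-195a-5p, and miR-503-5p has AGCAGCG in its place. The seed of miR-351-5p is CCCUGAG, as in miR-125a-5p and miR-125b-5p.

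Hairpins were placed on mm9 by matching tag sequences to the RefSeq hairpins or mature arms over at least 16 nt, since no mm9 annotation was used. Of the 7 hairpins of the cluster, Mir322, Mir503, Mir351 and Mir450-1 were placed, and no tag matched Mir542, Mir450-2 or Mir450b. For each placed hairpin a tag began at the first base after the 3p arm. The sequences below join the 3p arm in lower case (RefSeq, written as DNA) to the tag that follows it in capitals (from the deposited tags, minus strand of chromosome X read 5′ to 3′), so that the change of case marks the cut.
miR-351 at chrX:50406432-50406473: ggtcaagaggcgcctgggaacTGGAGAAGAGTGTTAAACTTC
miR-503 at chrX:50407143-50407185: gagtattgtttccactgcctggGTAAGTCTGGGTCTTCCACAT
miR-322 at chrX:50407425-50407466: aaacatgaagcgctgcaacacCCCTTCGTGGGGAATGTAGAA
miR-450a-1 at chrX:50401328-50401369: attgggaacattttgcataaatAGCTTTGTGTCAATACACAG
The miR-351 placement rests on tags at both arms. A tag of 21 nt in lung covered miR-351-3p from its first base at position 50406473 to its last at 50406453, and the strong end is the next base, at a distance of 0 nt. The first base of miR-351-5p, at position 50406515, carried its own tags, of which the most frequent was tCCCTGAGgagccctttgagc (chrX:50406495-50406515, seed in capitals). In RefSeq the Mir351 gene runs 21 bases past miR-351-3p, the length of the longer tags at the strong end.

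The miR-351 hairpin end dominated the cluster in every library. Of the 1962 tags, 1805 (92.0%) began within 1 nt of it. A further 146 tags on 9 ends were no more than 1 nt from the start of another arm or from the base after another 3p arm. Only 11 tags, on 11 ends of 1 tag each, lay elsewhere, and 4 of these lay upstream of miR-322-5p. Tags thus marked hairpin boundaries almost without exception, and the body of the host RNA gave hardly any. No tag was listed on the plus strand of the region, and none on the minus strand within 12 kb on either side of it.

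**Figure D1:**
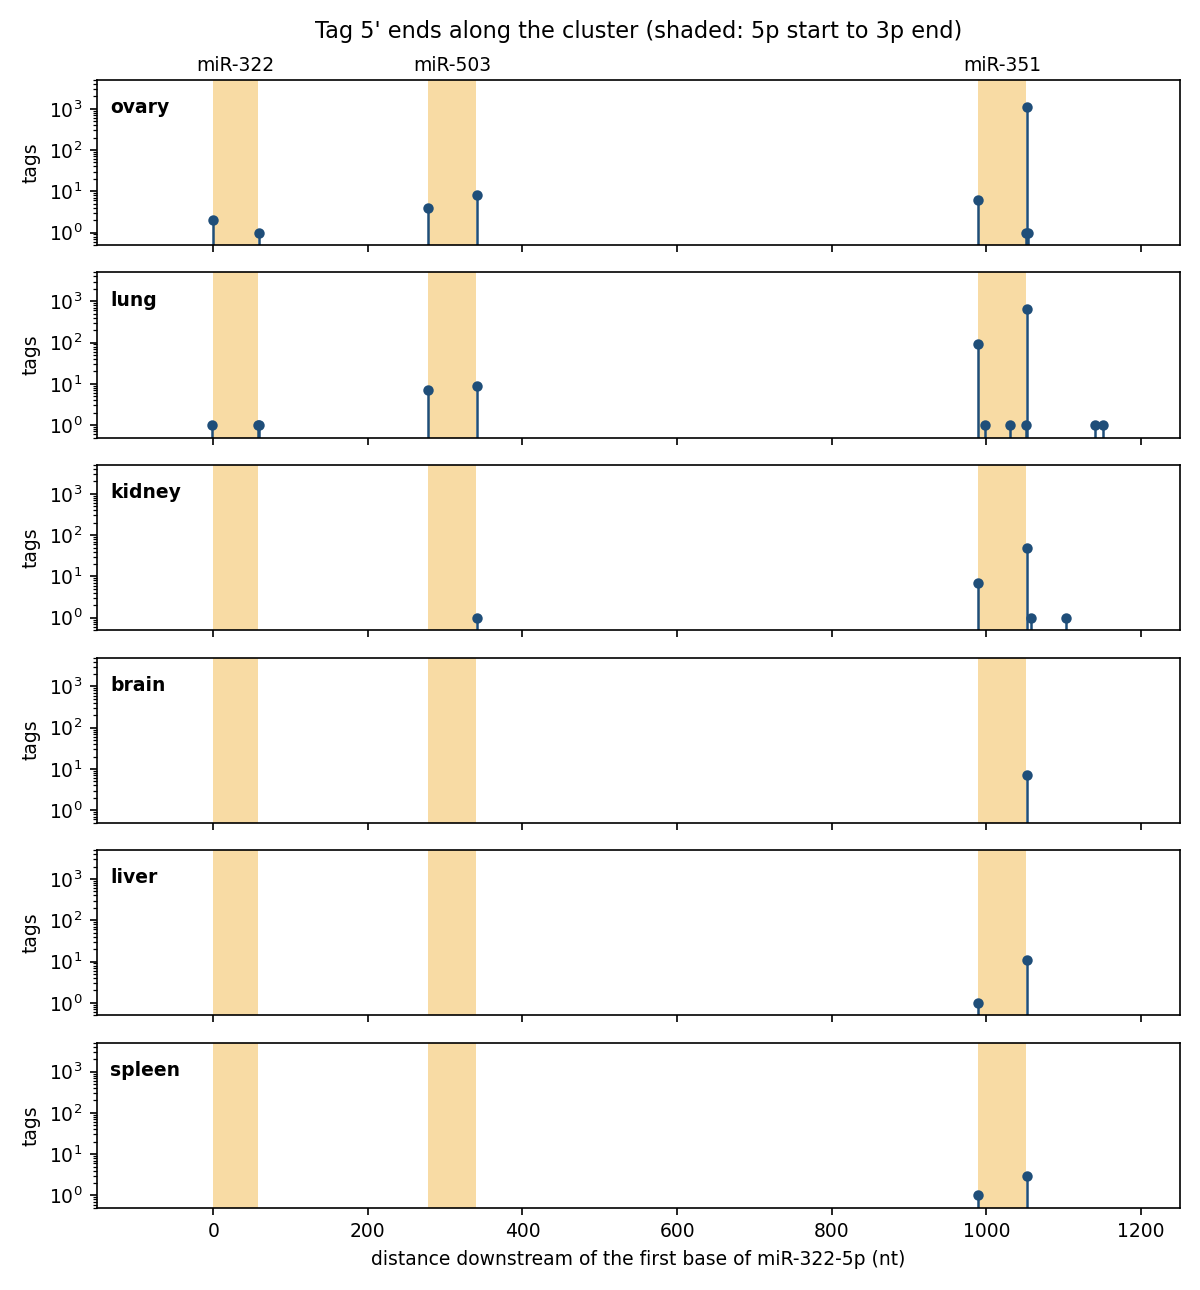
Tags at each 5′ end (log scale) against the distance in nt from the start of miR-322-5p, 1 panel per library; shaded bands run from the first base of the 5p arm to the last base of the 3p arm. The tallest end in each panel is at 1052 nt, directly after the miR-351 band, with 1100 tags at that base in ovary and 634 in lung; the tags at miR-450a-1 and those farther off lie outside the plotted range.

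Counted within 1 nt, the miR-351 hairpin end held 1101 tags in ovary, 635 in lung, 48 in kidney, 11 in liver, 7 in brain and 3 in spleen. Scaled to depth these were 37689 CPM in ovary (interval 35495 to 39982), 1288 in lung (1189 to 1392) and 296 in kidney (218 to 392). The 3 lowest libraries had 210 CPM in brain (84.3 to 432), 139 in liver (69.6 to 249) and 69.9 in spleen (14.4 to 204). Ovary was thus far above the rest, lung was the second and the other 4 libraries were low. Since the end was picked for its ovary count, these levels are a description. Ovary exceeded lung 29.3-fold (interval 26.5 to 32.3), kidney 127-fold (95.4 to 174), brain 180-fold (86.9 to 448), liver 271-fold (151 to 543) and spleen 539-fold (184 to 2620). Among the others, lung exceeded kidney 4.35-fold (3.24 to 5.97). Kidney over brain (1.41, interval 0.635 to 3.70), brain over liver (1.51, 0.495 to 4.25) and liver over spleen (1.99, 0.527 to 11.1) did not differ beyond counting error. After scaling by TMM, which takes a trimmed mean of log ratios between libraries in place of total depth, ovary over lung was 11.1 (10.1 to 12.3), over kidney 70.02 and over liver 136. Counting each distinct tag sequence once gave ovary over kidney 48.2, over brain 18.2, over liver 20.9 and over spleen 17.6. Among the lower libraries, TMM put kidney over brain at 2.82 (1.27 to 7.396) and brain over liver at 0.687 (0.226 to 1.94). On that scale kidney stood above brain and the order of brain and liver turned. TMM used the 2 kb windows with a tag in both a library and the reference library, without a minimum count. Its factors were higher in the shallow libraries (brain 1.64, ovary 1.49, spleen 1.19) than in liver (0.747), kidney (0.818) and lung (0.566). Whether these factors follow depth was not tested, so TMM values are given only as a second scale.

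In ovary the base at 50406452 was the strongest end of the library, with 3.77% of all unique tags within 1 nt of it (interval 3.55 to 3.99). It ranked 28 among the ends of lung, 55 in brain, 93 in kidney, 405 in liver and 1298 in spleen. The 2 kb window that holds it (minus strand, from 50406001) had the most tags of all windows in ovary. Of the 2 kb windows of a strand that held 20 tags or more over all libraries, 0.201% (14 of 6960) had an ovary level at least 5 times that of every other library, this window among them. For this criterion, counts below 3 in the other libraries were set to 3. In 4.76% of the same windows a single end held at least 50% of the tags, and here it held 92.2%. The window was chosen on these counts, so its place among the others supports nothing further.

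The share of the region's tags at the miR-351 hairpin end was 97.9% in ovary (1101 of 1125, interval 96.8 to 98.6), 84.1% in lung (635 of 755, 81.3 to 86.6) and 81.4% in kidney (48 of 59, 69.1 to 90.3). It was 11 of 12 tags in liver, 7 of 7 in brain and 3 of 4 in spleen, too few to place those libraries. The remaining tags numbered 24 in ovary and 120 in lung, or 822 and 243 CPM (ratio 3.38, interval 2.08 to 5.27), and with TMM that ratio was 1.29 (0.793 to 2.004). The strong end was picked for its ovary count, so its larger ratio follows from the choice and both ratios stand here as a description.

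The tags at the strong base were nearly all of the same sequence, in 2 lengths. In ovary 1053 of 1100 tags (95.7%) had the sequence shown above or its first 20 nt, and in lung 616 of 634 (97.2%). The other tags, which differ from it, made up most of the 30 distinct sequences in ovary and 12 in lung. Tags of 21 nt made up 50.4% in ovary (interval 47.4 to 53.4), 40.5% in lung (36.7 to 44.5) and 66.7% in kidney (51.6 to 79.6), against 38.9%, 39.4% and 37.6% over all tags of those libraries. The enzyme MmeI sets this length, and the share of the longer form at this end was above the library's own share in ovary and kidney. How many molecules lay behind these tags before amplification was not tested.

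**Figure D2:**
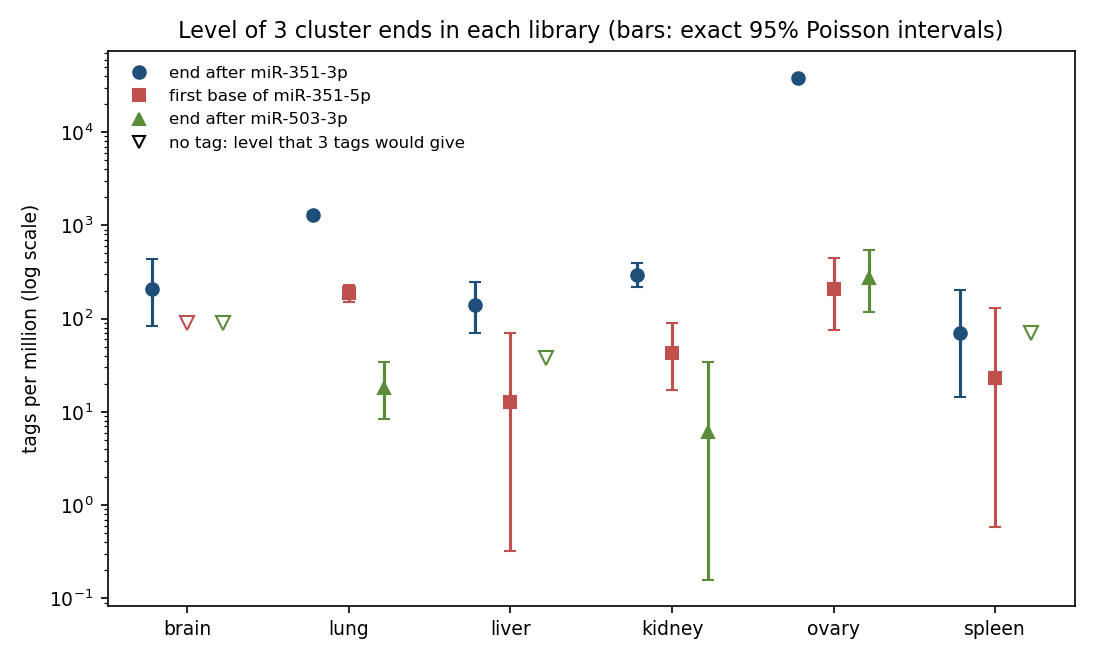
Level in CPM (log scale) of the end after miR-351-3p, the first base of miR-351-5p and the end after miR-503-3p in each library; bars are exact 95% Poisson intervals and open triangles give the level that 3 tags would have where no tag was found. The end after miR-351-3p reaches 37689 CPM in ovary and 1288 in lung, whereas the first base of miR-351-5p is at 205 and 189 CPM in the same libraries.

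The opposite boundary of the same hairpin did not follow the hairpin end. The first base of miR-351-5p held 93 tags in lung, 7 in kidney, 6 in ovary, 1 in liver, 1 in spleen and 0 in brain. At 205 CPM in ovary and 189 in lung the ratio was 1.09 (interval 0.390 to 2.46), so the libraries did not differ beyond counting error on this scale. With TMM the ratio was 0.415 (interval 0.148 to 0.937). The TMM factors were higher in the shallow libraries, so no lower level in ovary is read from that value. Of the tags at either boundary of miR-351, those at the first base of miR-351-5p made up 0.542% in ovary (6 of 1107, interval 0.199 to 1.18). They made up 12.8% in lung (93 of 728, 10.4 to 15.4) and 12.7% in kidney (7 of 55, 5.27 to 24.5). This share does not depend on the scaling between libraries, but its total holds the ovary count by which the end was picked, so it too is a description. Tags of 20 or 21 nt do not show how far an RNA that starts at miR-351-5p reached, and the source of these tags was not tested.

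The other hairpins, when pooled, did not show this difference between ovary and lung, but the pool mixed hairpins in unlike proportions. At hairpin ends Mir24-2 gave 402 lung tags and 11 ovary tags, and Mir214 gave 70 and 28. Over the other hairpins with both arms placed, the first base of the 5p arm took 33.1% of the tags at either boundary in lung (1079 of 3257, interval 31.5 to 34.8) and 35.6% in ovary (90 of 253, 29.7 to 41.8). Without let-7b, the hairpin with the most tags, the shares were 26.3% and 27.2%. In kidney they were higher, at 80.01% with let-7b and 70.6% without it, yet miR-351 in kidney stayed at 12.7%. Individual hairpins with at least 10 such tags ranged from 0% at Mir214 and Mir24-2 to 100% at Mir26b in lung, so miR-351 lay among those where the hairpin end prevails. For let-7b, a member of the let-7 family with a conserved role in differentiation, the 5p share was 38.9% in lung and 43.75% in ovary. Outside the cluster, only let-7b, Mir214 and Mir24-2 had at least 10 such tags in ovary. Mir214 and Mir24-2 were at 0% in both libraries, so their shares could not be lower in ovary. Whether the difference is particular to miR-351 was thus not tested.

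**Figure D3:**
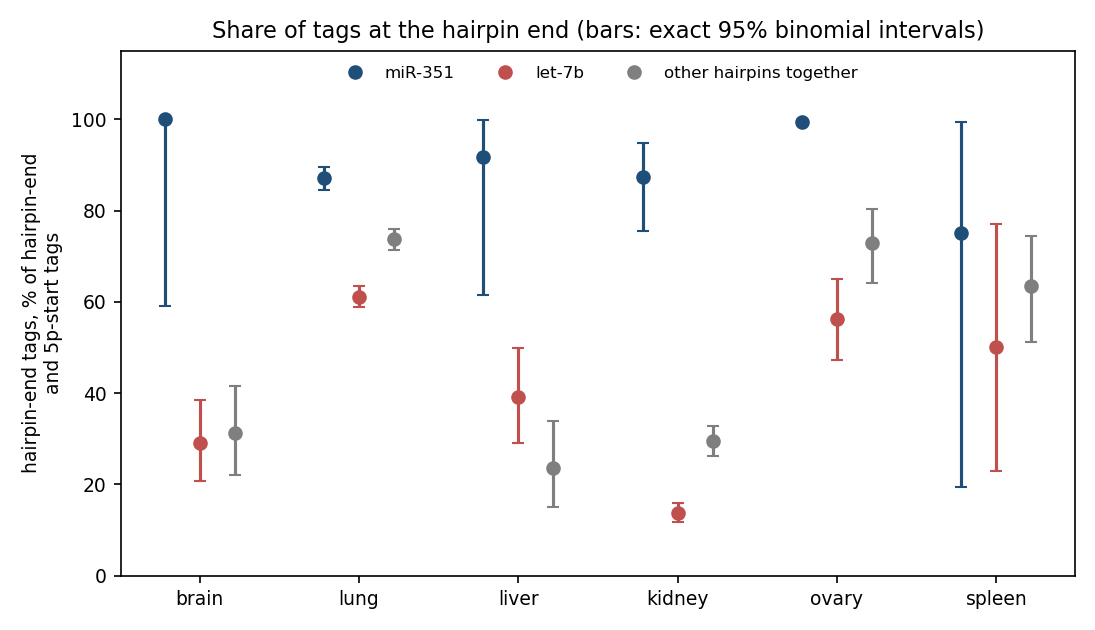
Tags at the hairpin end as a percentage of the tags at the hairpin end and the first base of the 5p arm, for miR-351, let-7b and all other hairpins outside the cluster, in each library; bars are exact 95% binomial intervals. For miR-351 the share is 99.5% in ovary and 87.2% in lung, while the other hairpins together are at 72.8% and 73.7%. The pool of other hairpins mixes them in unlike proportions between libraries.

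miR-503, the next hairpin upstream, gave the same kinds of end at a far lower level. Its hairpin end at position 50407163 held 9 tags in lung, 8 in ovary and 1 in kidney, and none in brain, liver or spleen. At 274 CPM in ovary and 18.3 in lung, ovary was 15.005 times higher (interval 5.04 to 43.8), and 5.71 times with TMM (1.92 to 16.7). This end too was thus higher in ovary beyond counting error, if tags are taken as independent. All 18 tags at it had the same sequence, and the number of molecules behind them was not tested. The first base of miR-503-5p at position 50407226 had 7 lung tags and 4 ovary tags (ratio 9.65, interval 2.07 to 37.9, and 3.67 with TMM, 0.788 to 14.4). Of the tags at either boundary of miR-503, 7 of 16 in lung and 4 of 12 in ovary were at the 5p arm. The wide intervals leave these 2 shares indistinguishable.

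miR-322, the most upstream hairpin, had few tags at all. Tags at the start of miR-322-5p, within 1 nt, comprised 2 ovary tags and 1 lung tag, and those at its hairpin end at position 50407445 comprised 1 ovary tag and 2 lung tags. miR-450a-1, beyond the noncoding gene, had 1 ovary tag and 1 lung tag at its hairpin end at position 50401347. These 2 hairpins were thus seen only in the libraries that lead at miR-351, at counts that allow no comparison between tissues.

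The 3 hairpins of the noncoding gene left very unequal numbers of ends. In ovary there were 138 tags at the miR-351 hairpin end for each tag at that of miR-503 (1101 to 8, interval 69.6 to 320), and in lung 70.6 (635 to 9, 36.9 to 155). The intervals of these ratios overlap, and whether the proportion between the hairpins differed between ovary and lung was not tested. In kidney the counts were 48 and 1. The miR-351 hairpin end lies 711 nt downstream of that of miR-503, which in turn lies 282 nt downstream of that of miR-322. Tags rose in number from the most upstream to the most downstream of the 3 hairpins, in ovary from 1 to 8 to 1101 and in lung from 2 to 9 to 635.

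Against all hairpins of the RefSeq table, the position of the strong end was a common one. Tags placed 144 hairpins, of which 47 had a 3p arm and at least 10 tags, and in 40.4% of those (19 of 47) the strongest end fell on the base after the 3p arm, give or take 1 nt, Mir351 and Mir503 among them. In 26 of the 47 the strongest end was the first base of an arm. The miR-351 hairpin end gave 86.0% of all hairpin-end tags in ovary (1101 of 1280, interval 83.99 to 87.9), 20.2% in lung (635 of 3146, 18.8 to 21.6) and 11.0% in kidney (48 of 437, 8.21 to 14.3). In ovary it was the first of 26 hairpins with such a tag, ahead of let-7b with 72 tags. In lung it was the second, after let-7b with 1076. The miR-351 hairpin end was picked for its ovary count, so its share and rank in ovary follow from that choice.

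**Figure D4:**
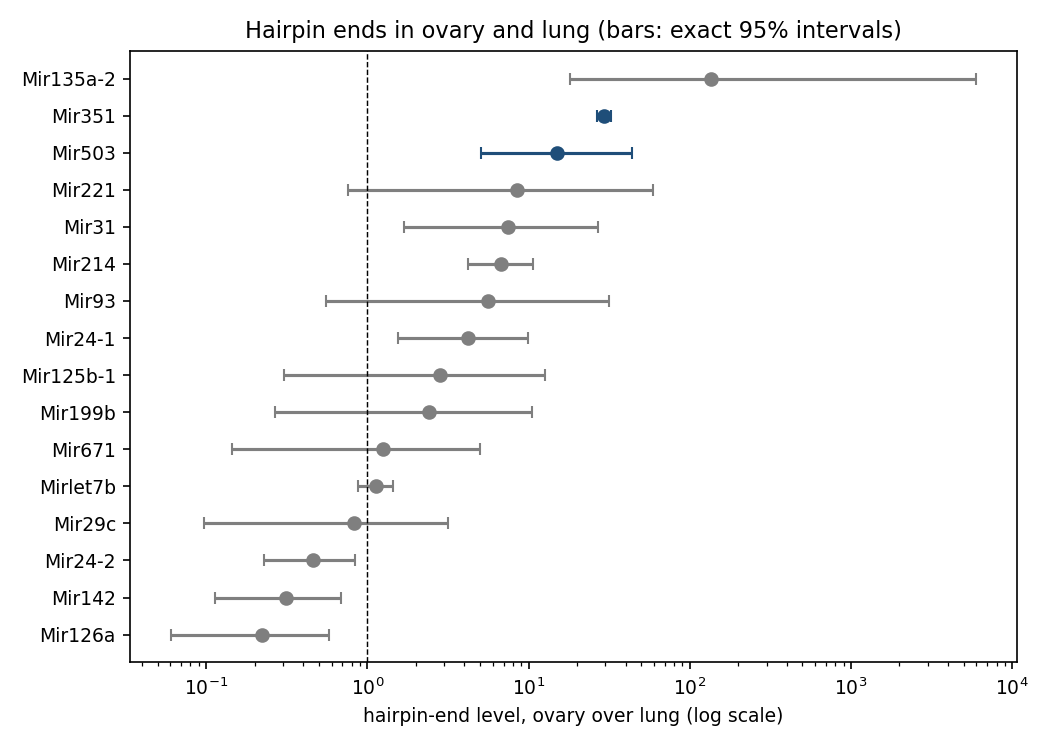
Level at the hairpin end in ovary over that in lung (log scale) for the hairpins with at least 10 hairpin-end tags and a tag in both libraries, with exact 95% intervals; the dashed line marks 1. Mir351 at 29.3 and Mir503 at 15.005, in blue, lie near the top with Mir135a-2 at 135, while Mirlet7b lies at 1.13. Mir135a-2 reached 10 tags only through its ovary tags.

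Among 21 other hairpins with at least 10 hairpin-end tags and a lung tag, the median of ovary over lung was 1.13, or 0.430 with TMM. The interval lay above 1 for 5 of them, Mir135a-2 (8 ovary tags and 1 lung tag, ratio 135, interval 18.1 to 5992), Mir503, Mir31, Mir214 and Mir24-1. With TMM it did so for 3, Mir135a-2 being at 51.4 (6.89 to 2281), and no longer for Mir31 (2.86, 0.643 to 10.2) and Mir24-1 (1.61, 0.592 to 3.76). Mir214, a microRNA of mesenchymal cells, had 28 ovary tags and 70 lung tags at its hairpin end (ratio 6.75, interval 4.19 to 10.6), and with TMM the ratio was 2.57 (1.60 to 4.04). No ovary tag was found at the hairpin end of 6 of the 21. Mir135a-2 reached the minimum of 10 tags (12 over all libraries) only through its 8 ovary tags. Its ovary lead thus follows in part from that minimum.

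The hairpins that share a seed with the cluster gave few tags. Of the miR-15/16 seed family outside the cluster (Mir15a, Mir15b, Mir16-1, Mir16-2, Mir195a and Mir497), 4 of 6 were placed, with 12 tags in lung, 4 in kidney, 3 in liver, 2 in ovary, 1 in spleen and 0 in brain. Their hairpin ends held 5 lung tags and 1 spleen tag. Mir125a and Mir125b-1, which share the seed of miR-351, had 24 lung tags, 3 brain tags, 3 ovary tags and 1 kidney tag, and Mir125b-2 was not placed. At Mir125b-1 the hairpin end held 12 lung tags, 2 ovary tags and 1 brain tag. At Mir125a no tag lay there and 10 lung tags began at the 5p arm. The arm miR-125b-5p is common to Mir125b-1 and Mir125b-2, and miR-16-5p to Mir16-1 and Mir16-2. Tags listed at 2 locations were left out, so tags within these arms could not be counted. The 5p counts of Mir125b-1 and Mir125a are therefore not comparable.

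MicroRNAs typical of other cell types differed between the libraries, and not all members of a list did so alike. The mesenchymal and gonadal hairpins Mir199a-1, Mir199b, Mir214 and Mir202 together (4 of 5 placed) had 1472 CPM in ovary (43 tags), 264 in lung, 129 in kidney and 0 in the other libraries. Mir214 alone gave 33 of the 43 ovary tags. Mir199a-1 had 1 ovary tag (34.2 CPM) and 22 lung tags (44.6 CPM), and Mir199b had 2 ovary tags (68.5 CPM) and 14 lung tags (28.4 CPM). Mir202, known for its expression in gonads, had 7 tags in ovary and 1 in kidney, as the ovary label calls for. The blood cell hairpins Mir142, Mir223 and Mir451a (3 of 4 placed, Mir150 not) together had 1211 CPM in spleen, 769 in lung and 205 in ovary. Mir142 had 35 spleen tags and 343 lung tags, and Mir451a had 17 and 23. Mir223 had 13 lung tags but none in spleen, and all 6 ovary tags were at Mir142. The endothelial Mir126a had 621 CPM in lung and 137 in ovary. None of the 3 Mir9 hairpins, typical of brain, was placed by a tag in any library. Leaving out tags listed at 2 locations can remove those of hairpins with a common arm, so this absence does not show their level. The part of these cells in the miR-351 level was not tested.

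By the pattern of log2(CPM + 1) over the 6 libraries, the hairpins most like the miR-351 hairpin end, of 51 with at least 10 tags, were Mir503 (Pearson r = 0.963), Mir199b (0.914), Mir214 (0.852), Mir1892 (0.824) and Mir199a-1 (0.779). All 5 have no tag in brain, liver and spleen, whose libraries are shallow, and Mir199b rests on 14 lung tags and 2 ovary tags. Each hairpin entered with all its tags, and Mir1892 and Mir199a-1 had none at the hairpin end. The 5 windows of 2 kb most like it, of 6959, were on the minus strand of chromosome 9 from 85580001 (r = 0.995), the plus strand of chromosome 10 from 96980001 (0.987), the minus strand of chromosome 1 from 9932001 (0.984), the plus strand of chromosome 18 from 75160001 (0.979) and the plus strand of chromosome 8 from 86520001 (0.977). Their ovary tags numbered 3, 25, 14, 21 and 5, and their lung tags 20, 81, 94, 152 and 32. The coefficients describe single libraries of unequal depth, and the closest window rests on 3 ovary tags at 103 CPM.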

How the data were processed

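PARE tags of 6 mouse tissues were made by ligation to 5′ monophosphates of polyadenylated RNA, MmeI trimming and PCR, per the labels' protocols. The authors deposited, per tissue, each distinct tag sequence with its mm9 location and its count of reads. The deposited score is a display density with a ceiling of 999, per the authors' description, and was not used. Bowtie and mm9 are named in the submitters' processing notes, with its version not given in the sources used here. Tags whose sequence was listed at 2 locations were left out (none in the region). Counts were scaled to 1000000 unique tags per library. Minus-strand tags were reverse-complemented, and their 5′ end is the last base of the listed location. Ratios carry exact conditional binomial, shares Clopper-Pearson and levels Poisson 95% intervals, computed with Python 3.11.15 and scipy 1.17.1, and no p-value was computed. Hairpins of the RefSeq table (GRCm38.p6) were placed by tag sequence on the same chromosome, with 1 position each. A hairpin's tags were counted from 20 nt upstream of its start to 40 nt past its end. Mir351 has only its mature arms in that table. The placement and window rules were tested on simulated data. Named items are the region's ends with at least 5 tags or at a hairpin boundary, the cluster, its seed families, the marker lists and the 5 most similar hairpins and windows; Mir31, Mir24-1, Mir135a-2, Mir26b, Mir24-2 and let-7b were named after their values were seen. The region, its members and the lists were chosen with earlier results of these data known.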

Additional observations from a re-analysis of the deposited data

How the results depend on the processing

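Of the level of ovary over each other library at the miR-351 hairpin end, no alternative brought a ratio below 1. TMM scaling lowered it to 11.1 over lung, 70.02 over kidney and 136 over liver. Counting distinct tag sequences instead of tags gave 18.2 over brain, 20.9 over liver, 48.2 over kidney and 17.6 over spleen, and most such sequences are variants of 1 tag. By distinct ends, the share of the region's tags at that end was 12.5% in lung, 50% in liver, 16.7% in kidney and 20.0% in ovary, since each end then counts once. Windows with an ovary level at least 5 times every other numbered 14, 9 with at least 50 tags and 7 with TMM, and the cluster window stayed among them in all settings run. Windows with a dominant end numbered 331, against 528 with at least 10 tags, 182 with at least 50 and 132 with a share of at least 80%. All listed tags, an end of 1 base or within 2 nt, another pseudocount and a longer match left the values within counting error or 1.5 times of the main ones. No paired analysis was possible because each tissue has 1 library. Depth limits ovary most, where a count of 0 allows up to 102.7 CPM.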

Other observations

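The motif CNNC, a stretch that lies shortly downstream of many hairpins and is known to bind the splicing factor SRSF3, was searched for on the RNA strand at bases 16 to 18 (first C) of 21-nt tags, a search chosen after the data had been seen. It was present after 19 of 29 hairpin ends with such a tag (65.5%, interval 45.7 to 82.1) and after 15.7% of all 195027 ends with one. The tag at the miR-351 hairpin end holds it from base 18 and that at the miR-503 hairpin end from base 16. The miR-322 tag has no match at these bases, and miR-450a-1 has no 21-nt tag. A match is a description of the sequence and says nothing of binding.

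The hairpin end of Mir135a-2 had more tags in ovary than in any other library, on small counts. It lies at position 91534848 of chromosome 10 (minus strand) and held 8 ovary tags, 3 brain tags and 1 lung tag, and none in liver, kidney or spleen. These are 274 CPM in ovary, 89.9 in brain and 2.03 in lung. This hairpin entered the comparison of ovary with lung only because its ovary tags brought it to the minimum of 10.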
